A study of Bos taurus with 8 samples.

Results

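The genes described here are 10 markers of cells other than chondrocytes, read in RNA-Seq counts of chondrocytes of the superficial zone (SZCs) and of the deep zone (DZCs) as a check of RNA from blood-derived and vessel cells. They are 6 immune genes (*PTPRC*, *CSF1R*, *CD68*, *CD163*, *CD14* and *TYROBP*) and 4 endothelial genes (*PECAM1*, *KDR*, *VWF* and *TEK*), chosen by name. All 10 were found once each among the 24596 counted genes, and 8 of them had enough counts to be tested between the zones. Both zones came from knee cartilage of wild-type calves, 1 to 2 weeks old, and were cultured for 3 days in medium with serum, with 2 libraries per zone (SZC replicates 1 and 2, DZC replicates 1 and 2). The superficial slice was cut at the joint surface and the deep slice lower in the same cores, and the cells were freed with pronase and collagenase. The methods describe passage through a strainer and name no sorting of cells by surface marker.

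Articular cartilage is a tissue of chondrocytes that lacks blood vessels once mature. It lies between the joint cavity, which synovium lines, and bone. Macrophages are resident in synovium and bone, and endothelial cells line the vessels there and in the canals that enter growing cartilage. *PTPRC* encodes CD45, a phosphatase at the surface of nearly all leukocytes, and *TYROBP* an adaptor that passes on signals from receptors of myeloid and natural killer cells. *CSF1R* is the growth factor receptor of macrophages, *CD14* a receptor for bacterial lipopolysaccharide, *CD163* the scavenger receptor for haptoglobin-bound haemoglobin, and *CD68* a protein of lysosomes and endosomes that is abundant in macrophages but also present in other cells. *PECAM1* encodes CD31, an adhesion protein of endothelial junctions, *KDR* the main receptor for VEGFA, *TEK* the receptor for angiopoietins, and *VWF* the clotting protein stored by endothelial cells.

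The libraries held between 19918970 and 21890549 counts. DZC replicate 1 stood apart from the other 3 in measures over all genes. *COL2A1*, the main collagen of cartilage, took 24.5% of its counts, against 6.31% to 12.9% in the others. A count was seen for 14683 genes in it, against 15842 to 16058 elsewhere, and 126 genes had no count there but at least 10 in DZC replicate 2, whereas 5 genes showed the opposite. *KDR* is 1 of these 126 genes. Levels are given as counts per 1000000 (CPM) after trimmed mean of *M* values (TMM) scaling by edgeR, whose factor for DZC replicate 1 was 0.735. A level of 3 counts, taken as the smallest that can be shown, was between 0.129 and 0.187 CPM. In bulk RNA, fewer cells of a type and less RNA per cell cannot be told apart.

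All 10 markers were detected, at very low levels. Together they took 541 and 1002 counts in SZC replicates 1 and 2, and 170 and 511 in DZC replicates 1 and 2. These are 0.00272% (95% Wilson interval 0.00250% to 0.00295%), 0.00490% (0.00461% to 0.00522%), 0.000777% (0.000668% to 0.000902%) and 0.00248% (0.00227% to 0.00270%) of all counts, in that order. Intervals of shares and of ratios between libraries describe counting error alone. They treat each read as a separate molecule, which reads copied by PCR are not, so they may be too narrow even for that. By comparison, 13 chondrocyte genes (fibrillar and associated collagens, aggrecan, link protein, *SOX9* and others) took 15.7%, 16.6%, 41.7% and 23.5% of the counts of the same libraries, so the labelled cell type was borne out by its defining markers. Counts were not divided by transcript length, and levels of different genes are therefore not ranked against each other. More than 3 counts were present for all 10 markers in both SZC libraries and in DZC replicate 2, and for 6 of them in DZC replicate 1.

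**Figure D1:**
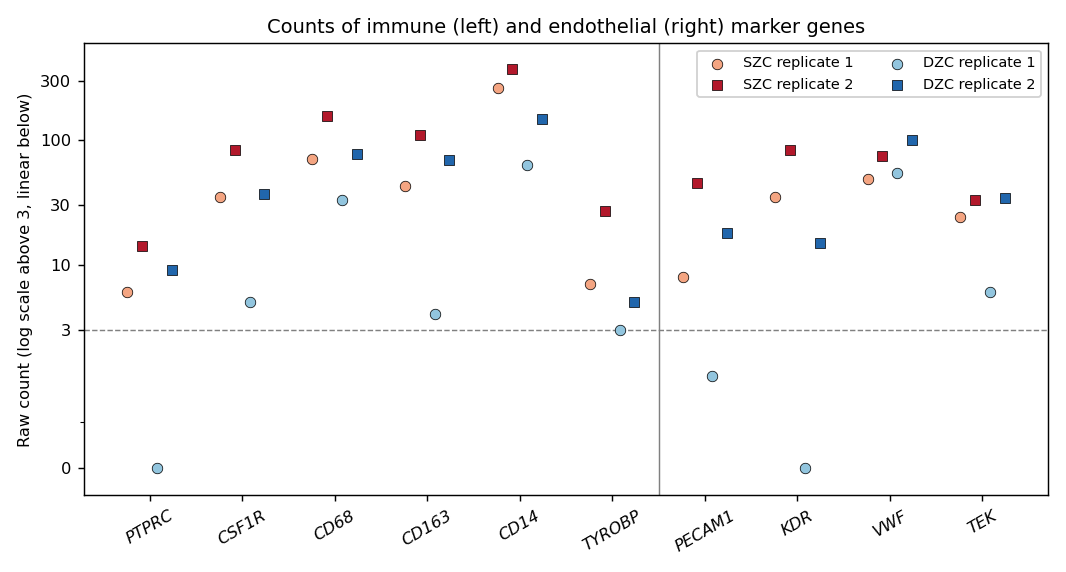
Raw counts (vertical axis, logarithmic above 3 and linear below) of the 6 immune markers on the left and the 4 endothelial markers on the right, with 1 point for each library and a dashed line at 3 counts. DZC replicate 1 is the lowest point for each gene except *VWF*, and has 0 counts of *PTPRC* and *KDR*.

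Among the immune markers, the gene shared by all leukocytes had few counts. *PTPRC* (ENSBTAG00000023144) was counted 6 and 14 times in SZC replicates 1 and 2, and 0 and 9 times in DZC replicates 1 and 2. *TYROBP* (ENSBTAG00000007338) had 7 and 27 counts in SZCs against 3 and 5 in DZCs. Each of these genes reached 10 counts in SZC replicate 2 alone and was left out of the test by the filter on low counts. Fitted without that filter, their log2 ratios of SZCs over DZCs were 1.05 (SE, standard error, 1.34) for *PTPRC* and 1.82 (SE 1.04) for *TYROBP*, neither of which passed the test (edgeR FDR 1 and 0.902, a p-value of its exact test adjusted over all genes). The *TYROBP* values of the zones did not overlap, at 0.318 and 1.16 CPM in SZCs against 0.187 and 0.224 CPM in DZCs, whereas those of *PTPRC* did.

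The next genes encode surface receptors of macrophages and monocytes. *CSF1R* (ENSBTAG00000012771) had 35 and 84 counts in SZCs against 5 and 37 in DZCs, which is 1.59 and 3.62 CPM against 0.311 and 1.66 CPM. *CD163* (ENSBTAG00000019669) had 43 and 111 counts in SZCs against 4 and 69 in DZCs, which is 1.95 and 4.78 CPM against 0.249 and 3.09 CPM. For both of these receptors DZC replicate 1 lay far below the other 3 libraries, and DZC replicate 2 lay above SZC replicate 1, so the zones overlapped. *CD14* (ENSBTAG00000015032) had the most counts of the 10 markers, 264 and 374 in SZCs and 63 and 147 in DZCs. Its levels were 11.99 and 16.1 CPM in SZCs and 3.92 and 6.58 CPM in DZCs, and both SZC libraries lay above both DZC libraries. The lysosomal gene *CD68* (ENSBTAG00000000133) had 70 and 156 counts in SZCs against 33 and 77 in DZCs, which is 3.18 and 6.72 CPM against 2.05 and 3.45 CPM. Here SZC replicate 1 fell just under DZC replicate 2.

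Summed over the 6 immune genes, the level was 19.3 and 33.0 CPM in the SZC libraries and 6.72 and 15.4 CPM in the DZC libraries. The means were 26.1 ± 9.68 CPM (SD, n = 2) and 11.1 ± 6.15 CPM (SD, n = 2), a 2.36-fold difference, given without a test because 2 libraries against 2 cannot reach the threshold in an exact permutation test (smallest two-sided p = 0.333). *CD14* alone gave 62.1% (95% Wilson interval 57.4% to 66.6%) and 48.8% (45.3% to 52.4%) of the immune counts in SZC replicates 1 and 2. In DZC replicates 1 and 2 it gave 58.3% (48.9% to 67.2%) and 42.7% (37.6% to 48.0%). Its share was thus higher in the replicate 1 library of each zone, with intervals that do not overlap.

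The endothelial markers were all higher in replicate 2 of each zone, but did not share a single pattern between the zones. *KDR* (ENSBTAG00000000782) had 35 and 83 counts in SZCs against 0 and 15 in DZCs, which is 1.59 and 3.57 CPM against 0 and 0.672 CPM. The SZC libraries lay above the DZC libraries, and against the limit of 3 counts in DZC replicate 1, *KDR* was at least 8.52-fold higher in SZC replicate 1 and at least 19.2-fold higher in SZC replicate 2. *PECAM1* (ENSBTAG00000012066) had 8 and 45 counts in SZCs against 2 and 18 in DZCs, which is 0.363 and 1.94 CPM against 0.124 and 0.806 CPM. For this junction protein the replicate 2 library of each zone was the high one, and the zones overlapped. *TEK* (ENSBTAG00000020148) had 24 and 33 counts in SZCs against 6 and 34 in DZCs, which is 1.09 and 1.42 CPM against 0.373 and 1.52 CPM. DZC replicate 1 alone was low for *TEK*.

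*VWF* (ENSBTAG00000012265) was the 1 marker whose mean was higher in DZCs. It had 49 and 75 counts in SZCs against 54 and 100 in DZCs, which is 2.22 and 3.23 CPM against 3.36 and 4.48 CPM. Both DZC libraries lay above both SZC libraries, and DZC replicate 1 was not low for this gene. Scaled by library totals alone, the *VWF* values were 2.46 and 3.67 in SZCs and 2.47 and 4.85 CPM in DZCs, so that the zones overlapped. Summed over the 4 endothelial genes, the level was 5.27 and 10.2 CPM in the SZC libraries and 3.86 and 7.48 CPM in the DZC libraries, which overlap. The ratio of the zone means was 1.36, or 0.44 on the log2 scale, and it rested on which genes were summed, being 1.51 on the log2 scale without *VWF* and -0.05 without *KDR*. Endothelial genes gave 21.4% (95% Wilson interval 18.2% to 25.1%) and 23.6% (21.0% to 26.3%) of the counts of all 10 markers in SZC replicates 1 and 2. They gave 36.5% (29.6% to 43.9%) and 32.7% (28.8% to 36.9%) in DZC replicates 1 and 2, so that the share was larger in both DZC libraries while the endothelial level was not. This order rested on *VWF*, and without it the shares were 13.6% and 17.4% in SZCs and 6.90% and 16.3% in DZCs.

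SZCs were then compared with DZCs by edgeR's exact test on all genes, which the study's methods also use, and p-values were adjusted by Benjamini–Hochberg over the 12857 genes tested (edgeR FDR in what follows). With a threshold of 0.05, 2.93% of all genes tested were called, made up of 2.23% higher in SZCs and 0.7% higher in DZCs. None of the 8 markers tested was called (0 of 8), and 2 of them had an unadjusted p-value below 0.05, as did 9.09% of all genes tested. DESeq2, which kept all 10 markers, called 0 of 10 and 2.3% of all genes, and 2 markers and 6.97% of all genes had an unadjusted p-value below 0.05. edgeR's quasi-likelihood test called 0 of 8, but also 0 of all 12857 genes, with 1 marker and 8.76% of all genes at an unadjusted p-value below 0.05. All 8 had at least 10 counts in a library of each zone, and 3 had them in every library. The filter asks for about 10 counts in 2 libraries. *KDR*, *CSF1R*, *CD163* and *TEK* had fewer than 10 in DZC replicate 1, so their SZC libraries alone were enough to enter them. *CD14* came closest, with a log2 fold change of SZCs over DZCs of 1.41 (SE 0.50, edgeR FDR 0.142), which is 2.66-fold with a 95% interval from 1.34-fold to 5.29-fold. *KDR* had the largest fitted log2 fold change, 2.88, and also the largest SE, 1.24 (edgeR FDR 0.435). The interval of *KDR* reached from 1.37-fold to 39.4-fold, and 1 of the DZC libraries held none of its counts.

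The intervals of the other 6 markers tested included no difference. The log2 fold change of *CSF1R* was 1.38 (SE 0.95), that of *PECAM1* 1.27 (SE 1.16), that of *CD163* 1.00 (SE 1.11), that of *CD68* 0.84 (SE 0.67) and that of *TEK* 0.38 (SE 0.86). That of *VWF* was -0.52 (SE 0.59), with an interval from 0.311-fold to 1.56-fold. Their edgeR FDR values lay between 0.839 and 1. The median log2 fold change of the 4 immune markers tested was 1.19 and that of the 4 endothelial markers 0.83, against -0.04 over all genes tested. Both SZC libraries lay above both DZC libraries for 2 of the 8 markers tested, against 21.1% of all genes tested, and for 3 of all 10.

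The fold changes depended on single libraries of both zones. Without DZC replicate 1, the log2 fold change fell to 0.66 for *CSF1R*, 0.13 for *CD163*, 0.53 for *CD68* and 0.52 for *PECAM1*, and turned to -0.27 for *TEK*. *CD14* kept a value of 1.10 (SE 0.40, edgeR FDR 0.109) and *KDR* one of 1.94 (SE 0.79, edgeR FDR 0.225), with the lone DZC library assumed to vary as the SZC libraries do. Without SZC replicate 2, it fell to 0.68 for *CSF1R*, 0.22 for *CD163* and 0.21 for *CD68*, turned to -0.38 for *PECAM1*, and was 1.19 for *CD14* and 2.19 for *KDR* (edgeR FDR 1 for each). When DZC replicate 2 was left out, 20.7% of all genes tested were called, and among them 4 markers, namely *CSF1R* (log2 fold change 3.06, edgeR FDR 0.0175), *CD163* (3.74, edgeR FDR 0.00189), *CD14* (1.86, edgeR FDR 0.000485) and *KDR*, whose only DZC library then has 0 counts (edgeR FDR 6.6e-05). The smaller number of genes with a count in DZC replicate 1 and its larger *COL2A1* share moved with these low values, and their part in them was not tested.

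**Figure D2:**
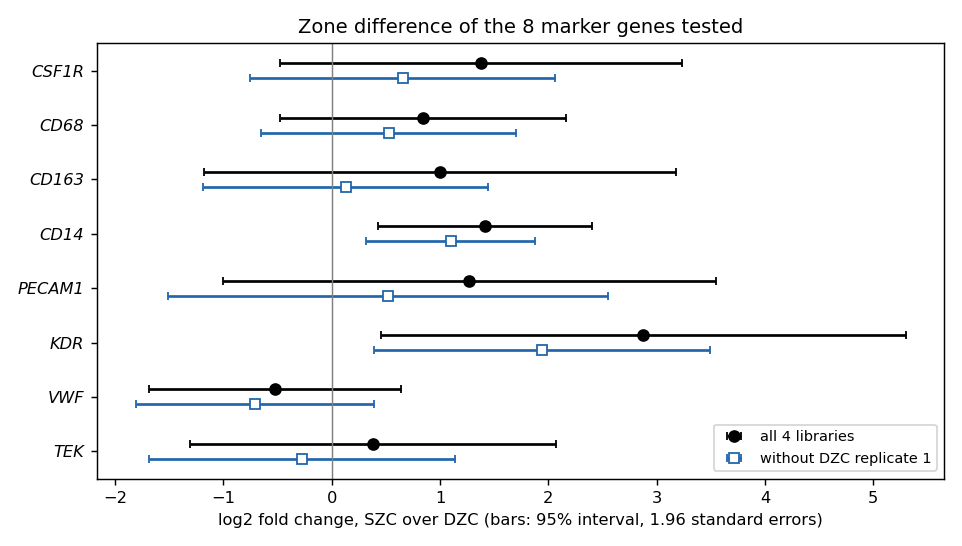
log2 fold change of SZCs over DZCs (horizontal axis) for the 8 markers tested, with all 4 libraries (black) and without DZC replicate 1 (blue, open squares). Bars are 95% intervals from the SE of edgeR's fit, and with all libraries the intervals of *CD14* and *KDR* alone lie to the right of 0.

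Libraries of the same zone also differed from each other. All 10 markers had a higher CPM in replicate 2 than in replicate 1 in SZCs and again in DZCs, also when libraries were scaled by their totals or by DESeq2's size factors. Among the 8 tested this is 8 of 8, against 32.8% of all genes tested. Within SZCs, the ratio of replicate 2 to replicate 1 lay above 1 beyond counting error for 7 of the 10 markers. The share of all genes with such an interval was not counted. Libraries of a zone differed beyond sampling noise (chi-square per degree of freedom 61.9 in SZCs), so this number does not set the markers apart. *CD14* had a ratio of 1.34 (95% exact interval 1.14 to 1.58), whereas *PECAM1* had one of 5.33 (2.49 to 13.1) and *TYROBP* one of 3.66 (1.55 to 9.95). *PTPRC*, *CSF1R*, *CD68*, *CD163* and *KDR* had ratios between 2.11 and 2.45, that of *PTPRC* with an interval from 0.799 to 7.03. For *VWF* and *TEK* the ratios were 1.45 and 1.30, and their intervals also reach below 1.

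Within DZCs the ratios spread more widely, and 8 of the 10 intervals lay above 1, again with no share over all genes to set beside it. *CD163* had a ratio of 12.4 (95% exact interval 4.64 to 46.9), and *CSF1R* one of 5.33 (2.09 to 17.4). The other macrophage genes, *CD14* and *CD68*, each had a ratio of 1.68, with intervals of 1.24 to 2.29 and 1.10 to 2.61. The interval of *CD163* did not overlap those of *CD14* and *CD68*, so the immune markers did not change in a fixed proportion between these libraries beyond counting error. *VWF* had a ratio of 1.33 (0.949 to 1.89) and *TYROBP*, with 3 and 5 counts, one of 1.20 (0.234 to 7.73). DZC replicate 1 was the lowest of the 4 libraries for 9 of the 10 markers, and for 7 of the 8 tested, against 36.5% of all genes tested.

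The endothelial list written for this comparison holds 28 other genes, of which 26 were matched. Only 5 had enough counts for the test, and 6 never exceeded 3 counts in any library. The next 5 genes, known mainly from vessels, were picked out for their values in SZC replicate 2, so the pattern they share was chosen. The counts of *PLVAP*, which forms the diaphragms of endothelial pores, were 2 and 81 in SZC replicates 1 and 2 and 3 and 24 in DZC replicates 1 and 2. *ROBO4*, an endothelial guidance receptor, had 1 and 29 counts in SZCs against 0 and 8 in DZCs. *EMCN* had 2 and 25 counts in SZCs against 0 and 4 in DZCs, and *ESAM* had 1 and 15 against 0 and 4. *CDH5*, the cadherin of endothelial junctions, had 1 and 10 counts in SZCs against 0 and 7 in DZCs. All 5 had at most 3 counts in SZC replicate 1 and in DZC replicate 1. *SELP* shared this pattern, with 0 and 6 counts in SZCs against 0 and 1 in DZCs. So did *SOX18*, with 2 and 8 against 0 and 2. Of the 26 genes matched, 16 had a higher CPM in replicate 2 of both zones. Of the 5 tested, 4 did, against 32.8% of all genes tested. Some other genes of the list were not highest in SZC replicate 2, or differed little between replicates. *FLT1*, a receptor of VEGF family ligands, had 22 and 60 counts in SZCs against 8 and 83 in DZCs, highest in DZC replicate 2. *EGFL7* had 7 and 8 counts against 4 and 2, and *LYVE1*, a marker of lymphatic vessels, 0 and 9 against 1 and 9.

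The ratio of SZC replicate 2 to SZC replicate 1 was 38.4 for *PLVAP* (95% exact interval 10.3 to 323) and 27.5 for *ROBO4* (4.56 to 1123), beside 2.25 for *KDR* (1.50 to 3.44), values given as a description because *PLVAP* and *ROBO4* were chosen for this difference. Per count of *KDR*, *PLVAP* had 0.0571 counts in SZC replicate 1 and 0.976 in SZC replicate 2, and 1.60 in DZC replicate 2.

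**Figure D3:**
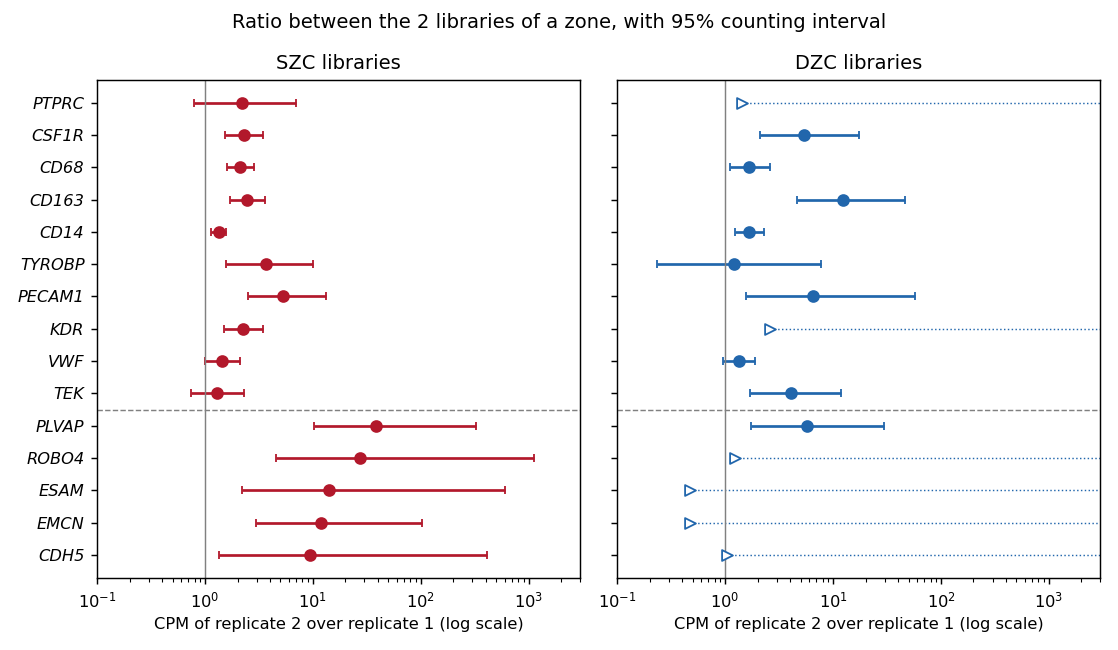
Ratio of CPM in replicate 2 to replicate 1 (horizontal axis, logarithmic) within SZCs on the left and DZCs on the right, for the 10 markers above the dashed line and 5 further endothelial genes, chosen for their values, below it. Bars are 95% exact intervals for counting error, and an open triangle with a dotted line marks the lower limit of a gene with 0 counts in replicate 1; in SZCs the ratio of *PLVAP* is 38.4 and that of *KDR* 2.25.

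Of the endothelial list, *ERG* and *ENG* had the most counts. *ERG*, an ETS transcription factor of endothelial cells that is also known in articular chondrocytes, had 2000 and 1571 counts in SZCs against 442 and 457 in DZCs. Of the 5 tested, 3 had an unadjusted p-value below 0.05 by edgeR's exact test, as did 9.09% of all genes tested. *ERG* alone was called, against 2.23% higher in SZCs among all genes tested. Its log2 fold change was 1.73 (SE 0.37, edgeR FDR 0.000769), and it was not called by the quasi-likelihood test without a block (FDR 0.192), without SZC replicate 1 (edgeR FDR 0.673) or SZC replicate 2 (edgeR FDR 0.0845). *ENG*, a TGF-β co-receptor, had 1795 and 1920 counts in SZCs against 705 and 1282 in DZCs (log2 fold change 0.70, edgeR FDR 0.52). Neither *SOX17* nor *MMRN1* had a count in any library.

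Other markers of blood-derived cells comprised 84 genes in 7 lists, of which 80 were matched and 29 tested. None was called (0 of 29 by edgeR, against 2.93% of all genes tested), and 4 had an unadjusted p-value below 0.05, as did 9.09% of all genes. The quasi-likelihood test without a block, which called 0 of all genes, called 0 here too, and 33 of the 80 never exceeded 3 counts in a library. Of the 11 macrophage genes tested, 10 had a higher CPM in replicate 2 of both zones, against 32.8% of all genes tested. Of the 8 pan-leukocyte genes tested, 3 did, and of the 2 MHC class II genes tested, 0 did. The macrophage genes with the most counts were *LAPTM5*, a lysosomal membrane protein, and *MRC1*, the mannose receptor. *MRC1* had 19 and 53 counts in SZCs against 31 and 196 in DZCs, highest in DZC replicate 2 (log2 fold change -1.77, edgeR FDR 0.636). *LAPTM5* had 264 and 233 counts in SZCs against 97 and 210 in DZCs (log2 fold change 0.51, edgeR FDR 0.952). The complement subunit *C1QA* had 24 and 44 counts in SZCs against 11 and 21 in DZCs. The summed level of the macrophage list was 21.4 and 29.8 CPM in SZCs and 11.7 and 28.8 CPM in DZCs, so the zones overlapped. The 15 pan-leukocyte genes summed to 14.3 and 19.3 CPM in SZCs and 5.10 and 11.1 CPM in DZCs, without overlap. Of the pan-leukocyte genes with the most counts, *LCP1*, an actin-bundling protein, had 65 and 123 counts in SZCs against 8 and 49 in DZCs, without overlap. *ARHGDIB* had 89 and 72 counts against 12 and 84, so that the zones overlapped and SZC replicate 2 was the lower of its pair. *CORO1A*, an actin-binding protein, had 28 and 36 counts against 23 and 24 and also overlapped in CPM.

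Markers of antigen presentation and of lymphocytes ranged from 0 to 144 counts per library. The MHC class II genes with the most counts were *BOLA-DMA* and *BOLA-DMB*, which help to load peptides. *BOLA-DMA* had 65 and 47 counts in SZCs against 69 and 31 in DZCs, and *BOLA-DMB* 23 and 11 against 13 and 15. *BOLA-DRA*, the α chain of MHC class II DR, had 0 counts in 3 libraries and 2 in DZC replicate 2. *CD74*, the chain that escorts MHC class II, had 7 and 7 counts in SZCs against 4 and 11 in DZCs. The CD3 subunits of the T cell receptor, *CD3D*, *CD3E* and *CD3G*, had at most 3 counts in any library. *CD247*, the ζ chain of the same receptor complex, had more, with 144 and 139 counts in SZCs and 141 and 130 in DZCs. *LCK* and *ZAP70*, kinases of T cell signalling, had 9 and 23 counts in SZCs against 32 and 9 in DZCs, and 3 and 19 against 15 and 19. *JCHAIN*, the joining chain of secreted antibodies, had 17 and 36 counts against 12 and 38, and *BLNK*, a B cell adaptor, had at most 4 in any library. Of these genes, none that was tested was called by edgeR. Of the B cell genes, *MS4A1* and *PAX5* had 0 counts in all 4 libraries. *HBB*, the β chain of haemoglobin, also had 0 counts in all of them, which allows up to 0.129 to 0.187 CPM, and so did *SLC4A1* and *EPB42*. *AHSP*, the chaperone of α-globin, had 9 and 14 counts in SZCs against 9 and 11 in DZCs, and *HBM*, a minor globin, had at most 4 in any library. *S100A9*, a calcium-binding protein of neutrophils, had 1707 and 2054 counts in SZCs against 5687 and 2095 in DZCs, while *CSF3R*, the neutrophil growth factor receptor, had 0 counts. *KIT*, the stem cell factor receptor of mast cells, had 18 and 60 counts in SZCs against 0 and 5 in DZCs (log2 fold change 3.75, SE 1.19, edgeR FDR 0.0876), and *HDC*, which makes histamine, had 3 and 18 against 5 and 4. The mast cell genes *CPA3* and *MS4A2*, and of the other lists *IKZF1*, *MARCO*, *BOLA-DOB* and *CD2*, were also at 0 in all 4 libraries. In summed level, the 8 MHC class II genes lay between 2.91 and 5.47 CPM, the T and natural killer cell genes between 7.58 and 12.4 CPM, the B cell genes between 0.933 and 2.15 CPM and the erythroid genes between 0.499 and 0.861 CPM, and none of these lists had higher levels in replicate 2 of both zones except those of the B cell and erythroid genes. Globin and MHC genes have near-identical copies in cattle, among which reads may be split or lost.

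**Figure D4:**
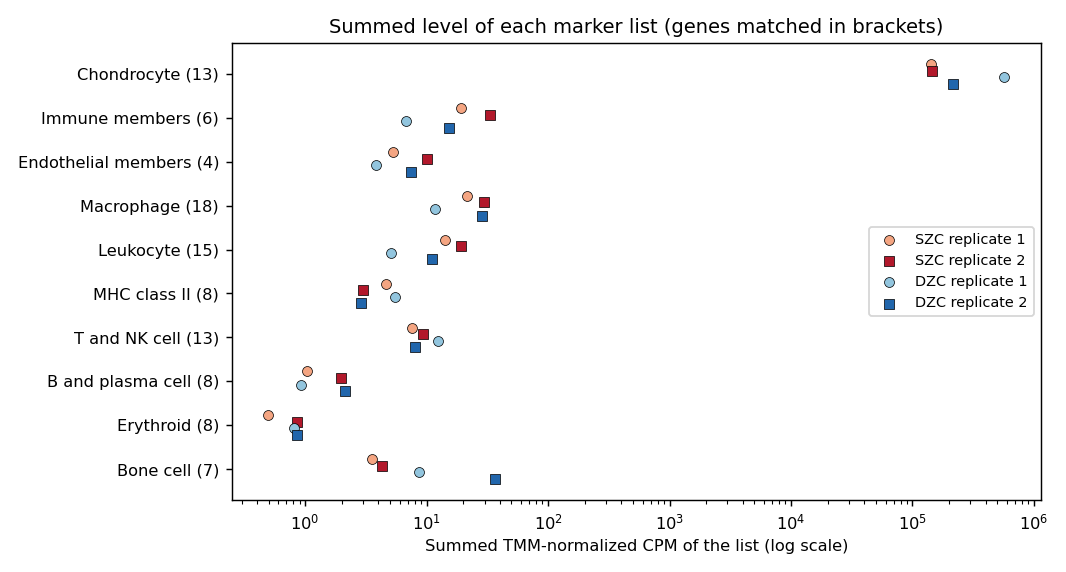
Summed TMM-normalized CPM (horizontal axis, logarithmic) of each marker list in the 4 libraries, with the number of genes matched in brackets. The chondrocyte list lies at 142433 CPM or more in every library, the immune markers between 6.72 and 33.0 CPM and the endothelial markers between 3.86 and 10.2 CPM; points of 1 library are drawn at a small vertical offset.

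The ligands and partners of the 10 markers, and further ligands of the VEGF family, were measured in the same libraries. Of 29 such genes listed, 28 were matched and 22 tested, and 2 were called, both higher in SZCs, against 2.23% of all genes tested. *HP*, haptoglobin, which carries haemoglobin to CD163, had 165 and 77 counts in SZCs against 1 and 1 in DZCs (edgeR FDR 4.25e-07). With 1 count in each DZC library, its ratio is known only from the summed counts, as 103 with a 95% exact interval of 28.1 to 853 for counting error alone. *PGF*, a VEGF family ligand of FLT1, had 480 and 223 counts in SZCs against 7 and 5 in DZCs (log2 fold change 5.58, SE 0.74, edgeR FDR 3.23e-09). Both were called with each library left out in turn, but not by edgeR's quasi-likelihood test without a block, which called 0 of all genes (FDR 0.125 for each). Unlike the 10 markers, *HP* and *PGF* were higher in SZC replicate 1 than in SZC replicate 2.

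Ligands of the other receptors did not pass edgeR's test. *CSF1* and *IL34*, the ligands of CSF1R, were present in every library, with *CSF1* at 439 and 712 counts in SZCs and 231 and 701 in DZCs and *IL34* at 300 and 350 counts in SZCs and 154 and 155 in DZCs. *VEGFA*, the ligand of KDR, had 4929 and 3301 counts in SZCs against 1859 and 2980 in DZCs (log2 fold change 0.55, edgeR FDR 0.839). Among the partners of CD14 in sensing lipopolysaccharide, *TLR4* had 72 and 111 counts in SZCs against 2 and 27 in DZCs (log2 fold change 2.55, SE 0.97, edgeR FDR 0.245). *LY96*, which binds the ligand with TLR4, had 118 and 131 counts in SZCs against 11 and 96 in DZCs. *TLR4* and *LY96* were lowest in DZC replicate 1, as *CD14* was, but their ratios of DZC replicate 2 to DZC replicate 1, 9.72 (2.44 to 84.4) and 6.29 (3.36 to 13.0), lay above that of *CD14*. *MYD88*, the adaptor of this receptor, had 1250 and 1149 counts in SZCs against 850 and 1068 in DZCs and was not lowest in DZC replicate 1 in CPM. *TREM2*, a receptor that signals through TYROBP, had 1 and 13 counts in SZCs against 2 and 2 in DZCs. The angiopoietins that bind TEK were scarce, with at most 26 counts of *ANGPT1*, *ANGPT2* or *ANGPT4* in any library, and *F8*, the clotting factor carried by VWF, had 210 and 230 counts in SZCs against 37 and 161 in DZCs.

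The genes whose pattern over the 4 libraries was most like that of *CD14* were sought among 11929 tested genes with a mean of at least 1 CPM. Likeness was the Euclidean distance of log2(CPM + 1) values centred on each gene's mean. The nearest was *CD34*, at a distance of 0.05, followed by *LAMA2*, *FABP5*, *HHIP* and *SPRY1* at distances up to 0.16. *CD34*, a surface protein of endothelial and progenitor cells, had 41 and 66 counts in SZCs against 1 and 16 in DZCs. Adding 1 CPM draws together genes near that level, and without it the genes were less alike, with a ratio of DZC replicate 2 to DZC replicate 1 of 11.5 for *CD34* and 1.68 for *CD14*. With 4 libraries and so many candidates, close matches of this kind are a description of the libraries.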

How the data were processed

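RNA-Seq counts of 4 libraries were used, 2 SZC and 2 DZC. The ATAC-Seq samples were not analysed here. The authors aligned single-end reads with STAR 2.5.2b to Ensembl build UMD 3.1 and deposited the counts per gene without normalization, counted without regard to strand, so that reads of a gene and of its antisense neighbour cannot be told apart. They also deposited log2 fold changes and FDR values (adjusted p-values) of their own comparison, which were not used. Only the names of that table served, to fill 8 of 6119 blank gene names. Zones were compared in R 4.3.3 with edgeR 4.0.16, using TMM, its default filter and dispersions and its exact test, with standard errors from the gene-wise dispersion. DESeq2 1.42.0 was an alternative. The scripts were tested on simulated data. The methods call the libraries biological duplicates, but which animals they came from is not given in the sources used here, and p-values measure the spread between these libraries only. Libraries of a zone differed beyond sampling noise (chi-square per degree of freedom 61.9 in SZCs and 303 in DZCs). The markers and lists were chosen with earlier results of these data known. Of 187 listed genes beyond the 10 markers, 178 were matched by symbol. Named genes were drawn from the markers, their listed ligands and partners, and from each list the genes called, the 2 with the most counts and those at 0 counts, while other genes were named after their values were seen. Intervals for ratios are exact conditional binomial intervals. Alternatives were other tests, filters and scalings, a replicate block, and each library left out in turn. Sequences and coordinates of build UMD 3.1 were not used here.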

Additional observations from a re-analysis of the deposited data

How the results depend on the processing

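The absence of called markers held under 10 of the 11 alternatives, and 4 markers were called without DZC replicate 2, so that leaving out each library gave 0 to 4. Over the same 4 fits, which assume that the lone library of a zone varies like the other zone's pair, all genes called numbered 58 to 2725, those higher in SZCs 52 to 1607, those higher in DZCs 6 to 1118 and those among the other listed genes 2 to 38, against 377, 287, 90 and 7 with all libraries. edgeR's quasi-likelihood test with no replicate block made 0 calls in all, 0 higher in SZCs, 0 higher in DZCs and 0 among the other listed genes (1126 unadjusted p-values were below 0.05). Scaling to library totals gave 44 genes higher in DZCs, put 86.7% of calls on the side of SZCs and moved the median log2 fold change to 0.26. The summed endothelial log2 ratio was 1.51 without *VWF*, whose own log2 fold change is negative. The endothelial share of marker counts was 12.1 percentage points higher in the DZC mean than in the SZC mean, and the difference was -3.89 percentage points without *VWF*, an alternative chosen after seeing the data. The log2 fold change of *PECAM1* was -0.38 without SZC replicate 2 and 3.17 without DZC replicate 2, and that of *TEK* was -0.27 without DZC replicate 1 and 1.75 without DZC replicate 2. The cause of these changes was not tested, other than that fewer libraries entered these fits. A replicate block in the quasi-likelihood fit gave 347 called genes and 0 called markers (4 markers at an unadjusted p-value below 0.05; FDR 0.082 for *CD14* and 0.102 for *KDR*), *CNMD* lost its call (FDR 0.0793), and *HP* (FDR 0.0045) and *PGF* (FDR 0.00164) were called. Same-numbered libraries share only a number in the labels, and their deviations from the zone means had a correlation of 0.42 across 12857 genes, which are not independent. Depth limits what can be said of *PTPRC* and *TYROBP*, which have 29 and 42 counts in all libraries together.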

Other observations

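Markers of other cells that border cartilage were counted in the same libraries. Lists for pericytes and smooth muscle, osteoclasts, bone cells and adipocytes held 34 genes, of which 32 were matched and 19 tested. By edgeR's exact test 2 were called, both higher in SZCs, against 2.23% of all genes tested, and 8 had an unadjusted p-value below 0.05, as did 9.09% of all genes. *KCNJ8*, a potassium channel of pericytes, had 215 and 99 counts in SZCs against 23 and 12 in DZCs (log2 fold change 2.84, edgeR FDR 0.0256). *FABP4*, a fatty acid carrier of adipocytes and of some endothelial cells, had 268 and 219 counts in SZCs against 19 and 35 in DZCs (log2 fold change 2.96, edgeR FDR 3.32e-05). Neither was called without SZC replicate 1 (FDR 1 and 0.37) or without SZC replicate 2 (FDR 0.111 and 0.071). *PLIN1*, which coats lipid droplets, had 122 and 133 counts in SZCs against 90 and 95 in DZCs, and overlapped in CPM. *CSPG4*, a proteoglycan of pericytes that chondrocytes also make, had 55760 and 46683 counts against 37994 and 37709, and overlapped as well. *ACTA2*, smooth muscle actin, had 254 and 2164 counts in SZCs against 855 and 6938 in DZCs, so that it was higher in replicate 2 of both zones, as the 10 markers were. *CNN1*, a calponin of smooth muscle that was singled out after its values were seen, showed the same order with 15 and 97 counts in SZCs and 7 and 348 in DZCs. Of the 10 pericyte and smooth muscle genes tested, 8 had a higher CPM in replicate 2 of both zones, against 32.8% of all genes tested.

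The osteoclast list was split. *CTSK* and *MMP9*, proteases of osteoclasts that other cells also make, were counted at least 675 times in every library. *CALCR*, the calcitonin receptor, and the osteocyte gene *MEPE* had 0 counts in all 4 libraries, and *DCSTAMP* and *OCSTAMP*, which osteoclasts need to fuse, had at most 3 counts in any library. Of the bone cell list, *IBSP* was seen at 1 and 2 counts in SZCs, at 0 in DZC replicate 1 and at 268 in DZC replicate 2. *RUNX2* had 35 and 85 counts in SZCs against 120 and 383 in DZCs (log2 fold change -2.23, edgeR FDR 0.0608). *SP7*, a transcription factor of osteoblasts, had 2 and 8 counts in SZCs against 1 and 140 in DZCs. DZC replicate 2 was the highest library for these 3 genes, whereas *PHEX* (33 and 4 counts in SZCs against 16 and 22 in DZCs), *BGLAP* (6 and 1 against 1 and 1) and *DMP1* (2 and 0 against 0 and 1) had their highest count in SZC replicate 1.

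Of the 13 chondrocyte genes, *CNMD*, which encodes an inhibitor of vessel growth, and *MATN3*, a matrix protein, were called, both higher in DZCs, against 0.7% of all genes tested. *COL2A1* and *ACAN*, which had the most counts of this list, were not called. *CNMD* had 12135 and 15389 counts in SZCs against 114312 and 49932 in DZCs (log2 fold change -2.94, SE 0.61, edgeR FDR 0.000917). *CNMD* lost its call in the quasi-likelihood test with a replicate block (FDR 0.0793). It was not called without SZC replicate 1 (FDR 0.346) or SZC replicate 2 (FDR 0.121). *MATN3* gave a log2 fold change of -2.04 (SE 0.46, edgeR FDR 0.00212). It was not called without SZC replicate 1 (FDR 0.855) or SZC replicate 2 (FDR 0.111), or with libraries scaled by their totals alone (FDR 0.109).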
